A study of Gallus gallus with 28 samples.

Results

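POU4F3, GFI1 and LHX3 encode 3 transcription factors of differentiating hair cells. They were taken by gene symbol from the deposited table and are 3 of its 17684 features, each present once under its own symbol. The study followed the basilar papilla of the chicken, the hearing epithelium of birds, by RNA sequencing after streptomycin, an aminoglycoside toxic to hair cells. The treated group was dissected papillae exposed to streptomycin for 24 h and then left to recover, and the control group was papillae whose treatment is labelled none. Each was sampled at the 8 times labelled 0, 24, 48, 72, 96, 120, 144 and 168 h, in 15 treated and 13 control libraries. Treated papillae at 96 h and controls at 72, 96 and 120 h had 1 listed sample, and the other 12 groups had 2. The deposited table also holds 4 columns of second samples at 72, 96 and 120 h. They matched no listed sample and were not used, so a library called lone here is lone among listed samples only. The labels used here state neither age or strain nor the number of papillae per sample. They do not tell either if the 2 samples of a group are from different animals, so p-values measure the spread between these samples only.

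Hair cells are the sensory cells of the ear, and in birds, unlike in mammals, lost auditory hair cells are replaced by supporting cells that divide or convert. The factor ATOH1 starts the hair cell programme, and POU4F3, a POU-domain homeodomain protein, GFI1, a zinc finger repressor, and LHX3, a LIM homeodomain protein, act after it. In mice, POU4F3 and GFI1 are needed for hair cells to mature and survive, GFI1 lies downstream of POU4F3, and LHX3 in auditory hair cells depends on POU4F3. Outside the ear GFI1 is known in blood cells and LHX3 in the pituitary and motor neurons.

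Levels are in RPKM, a read density scaled by the authors to gene length and library size. Libraries held 16.48 to 38.17 M alignments (median 19.85 M). Differences are treated minus control on the scale of log2(RPKM + 1), ± standard error, from a limma fit over 12195 features, and this scale understates folds at low levels. A difference is said to pass when its Benjamini-Hochberg adjusted p over all features tested is under 0.05, and "rose" and "fell" are used of such differences. In bulk tissue, fewer cells of a type and less RNA per cell cannot be told apart. The sources used here do not say if counting used the strand, so reads of an overlapping antisense gene could not be separated.

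POU4F3 was nearly absent from treated papillae at the first times and stood at about the same level in all late treated libraries. At 0 h it was at 0.367 and 0.0851 RPKM in treated libraries, against 16.8 and 17.6 RPKM in controls. At 24 h the treated libraries held 0.142 and 0.187 RPKM and the controls 6.32 and 9.60 RPKM. At 48 h the values were 0.474 and 0.725 RPKM in treated against 14.3 and 12.3 RPKM in control libraries. The treated mean was therefore 1.32% of the control mean at 0 h, 2.07% at 24 h and 4.5% at 48 h. At 72 h POU4F3 stood at 1.33 and 0.870 RPKM in treated libraries, against 15.9 RPKM in the control. The lone treated library at 96 h held 4.21 RPKM, against 9.71 RPKM in the lone control. That library was the highest of all 15 treated libraries and reached 43.3% of its control. At 120 h the treated values were 2.59 and 2.10 RPKM and the control value was 7.64 RPKM. At 144 h they were 2.31 and 2.87 RPKM in treated and 4.37 and 3.79 RPKM in control libraries. At 168 h they were 2.14 and 2.55 RPKM in treated and 5.42 and 2.79 RPKM in control libraries. From 120 h on, treated libraries thus kept within 2.10 to 2.87 RPKM. The controls of 144 and 168 h lay below all early controls, while that of 120 h (7.64 RPKM) lay between the 2 controls of 24 h. The lower control at 168 h was close to the higher treated library of that time.

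GFI1 stayed at its low treated level longer. At 0 h it was at 0.448 and 0.208 RPKM in treated libraries, against 10.9 and 13.7 RPKM in controls. At 24 h the treated libraries held 0.173 and 0.531 RPKM and the controls 8.42 and 12 RPKM. At 48 h there were 0.128 and 0.295 RPKM in treated against 15.8 and 16.1 RPKM in control libraries. No early treated library came near any control. At 72 h treated GFI1 was at 0.542 and 0.0590 RPKM, against 17.8 RPKM in the control, the highest GFI1 level of the series. At 96 h it was at 0.743 RPKM in the treated and 10.9 RPKM in the control library. At 120 h the treated libraries held 1.33 and 1.12 RPKM and the control 7.56 RPKM. The treated level at 120 h was 16.2% of control, above the 1.69% at 72 h and the 6.85% at 96 h. At 144 h treated libraries were at 0.983 and 1.5 RPKM, against 5.14 and 6.49 RPKM in controls. At 168 h they were at 1.04 and 1.48 RPKM, against 6.70 and 6.05 RPKM in controls. The treated mean at these last times was 21.4% and 19.8% of the control mean.

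LHX3 followed GFI1 closely, with a wider spread between treated samples of 1 time. At 0 h it was at 0.382 and 0.151 RPKM in treated libraries, against 14.4 and 14.9 RPKM in controls. At 24 h the treated libraries held 0.441 and 1.10 RPKM and the controls 8.06 and 12.9 RPKM. At 48 h the values were 0.124 and 0.427 RPKM in treated against 15.5 and 14.9 RPKM in control libraries. The higher treated library at 24 h was the highest early treated value of the 3 genes. At 72 h LHX3 was at 0.801 and 0.0643 RPKM in treated papillae, against 18.1 RPKM in the control. At 96 h it was at 0.973 RPKM in the treated library and 10.3 RPKM in the control. At 120 h there were 1.62 and 1.15 RPKM in treated and 6.17 RPKM in control papillae. The same treated library, sample 2 at 72 h, gave the lowest value of both GFI1 and LHX3 in the series. At 144 h LHX3 stood at 0.585 and 1.92 RPKM in treated libraries, against 3.37 and 5.45 RPKM in controls. At 168 h it stood at 0.949 and 1.72 RPKM in treated libraries, against 4.81 and 3.48 RPKM in controls. Its treated mean was 22.4% of control at 120 h, 28.5% at 144 h and 32.2% at 168 h.

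**Figure D1:**
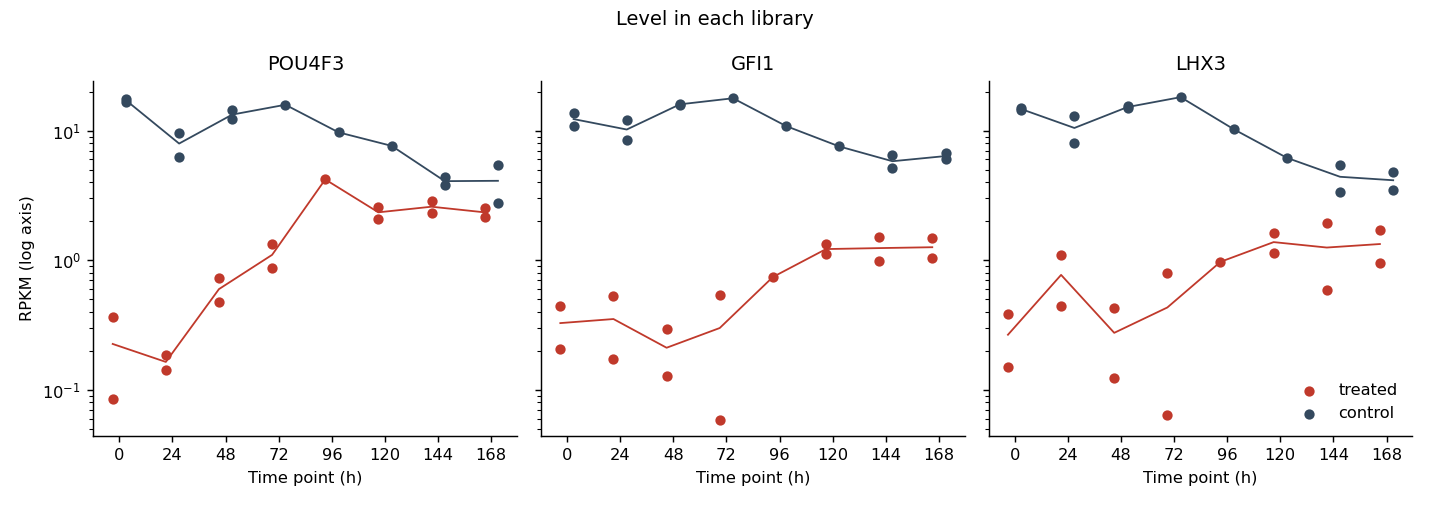
Level of POU4F3, GFI1 and LHX3 in each library (points, RPKM on a log axis) against time in hours, treated in red and control in dark blue, with lines through the group means. At each time every treated point lies below every control point, a separation whose share over all features was not counted. Treated POU4F3 reaches 4.21 RPKM at 96 h, when treated GFI1 is at 0.743 and LHX3 at 0.973 RPKM.

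The early treated values rest on few reads. Multiplied by the number of alignments of the library, all 6 treated values of POU4F3 at 0 to 48 h came out as whole multiples, within 0.1, of the smallest such value in any library. The multiples were 6 and 1 at 0 h, 2 and 2 at 24 h and 6 and 8 at 48 h, or 25 steps in all. The 1 at 0 h is the smallest value itself, so that match was fixed in advance. GFI1 gave 9 and 3, 3 and 7, and 2 and 4 steps at the same times, 28 in all. If a step is 1 read, which the table does not say, the differences among early treated libraries are differences of a few reads. For LHX3 only 3 of the 6 values were whole multiples, so its steps were not read this way.

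Ordered by group mean over the 16 combinations of treatment and time, GFI1 and LHX3 had all 8 treated groups below all 8 control groups. The share of all features ordered in this way was not counted. For POU4F3 the treated library at 96 h (4.21 RPKM) stood above the controls at 144 h (4.08 RPKM) and 168 h (4.11 RPKM), and the ranges of these controls met, while the treated library lay within the range of the 168 h controls. Among treated groups POU4F3 was lowest at 24 and 0 h, whose ranges overlapped, then at 48 h and at 72 h, whose ranges did not, and 168, 120 and 144 h overlapped one another. For GFI1 the treated groups at 48, 72, 0 and 24 h overlapped their neighbours in that order, 96 h stood alone, and 120, 144 and 168 h overlapped. For LHX3 each treated group met its neighbour in the order. The highest group of POU4F3 was the control at 0 h (17.2 RPKM), and the highest of GFI1 (17.8 RPKM) and LHX3 (18.1 RPKM) the control at 72 h.

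Set against the control of its own time, each gene fell over the whole series. The difference over all times was -2.12 ± 0.27 for POU4F3 (limma adjusted p = 1.68e-06), -2.75 ± 0.19 for GFI1 (adjusted p = 1.25e-10) and -2.53 ± 0.24 for LHX3 (adjusted p = 1.48e-08). All 3 genes were thus called lower, where 21.7% of all features tested were. At each of the 8 times all treated values lay below all control values, for all 3 genes. The 13 pairs of treated and control libraries with the same time and sample number all had the lower value in treated, for each gene. That follows from the separation at each time and adds no support to it. The share of all features so separated was not counted, and in groups this small a separation at a given time can arise by chance.

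At 0 to 48 h each of the 3 genes fell. With treated values this low, a difference in log2(RPKM + 1) depends mostly on the control level. The likeness of the 3 differences therefore does not tell whether the genes fell by equal amounts. POU4F3 averaged 0.33 ± 0.242 RPKM in treated and 12.8 ± 4.32 RPKM in control papillae (SD, n = 6 each), a difference of -3.33 ± 0.13 (limma adjusted p = 1.86e-12). GFI1 averaged 0.297 ± 0.161 RPKM in treated and 12.8 ± 2.98 RPKM in control papillae, a difference of -3.39 ± 0.13 (adjusted p = 8.24e-13). LHX3 averaged 0.438 ± 0.354 RPKM in treated and 13.5 ± 2.79 RPKM in control papillae, a difference of -3.33 ± 0.18 (adjusted p = 1.71e-10). Of all features tested, 23.5% were called lower in this window. The treated means were 2.58%, 2.32% and 3.25% of the control means for POU4F3, GFI1 and LHX3. Single times were less alike, with 2.07%, 3.45% and 7.35% at 24 h and 4.5%, 1.32% and 1.81% at 48 h in the same order. MYO7A, the myosin VIIA gene that marks hair cells of all ages, stood at 4.79% of control (-3.47 ± 0.12).

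At 120 to 168 h the genes were still lower in treated papillae. POU4F3 averaged 2.43 ± 0.298 RPKM in treated (SD, n = 6) and 4.8 ± 1.85 RPKM in control papillae (n = 5), or 50.5% of control. Its difference was -0.81 ± 0.14 (limma adjusted p = 0.00095), and the pooled ranges of the 2 arms met at 2.79 to 2.87 RPKM. Over 144 and 168 h alone, without the lone control of 120 h, it was -0.53 ± 0.16 (limma adjusted p = 0.0378). GFI1 averaged 1.24 ± 0.225 RPKM in treated and 6.39 ± 0.889 RPKM in control papillae, or 19.4%, with a difference of -1.75 ± 0.14 (adjusted p = 2.47e-07) and no overlap. LHX3 averaged 1.32 ± 0.514 RPKM in treated and 4.66 ± 1.22 RPKM in control papillae, or 28.4%, with a difference of -1.35 ± 0.20 (adjusted p = 0.000203) and no overlap. Lower calls took 15.1% of features in this window, and the share of features without overlap was not counted. MYO7A stood at 30.8% of control (-1.51 ± 0.13).

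**Figure D2:**
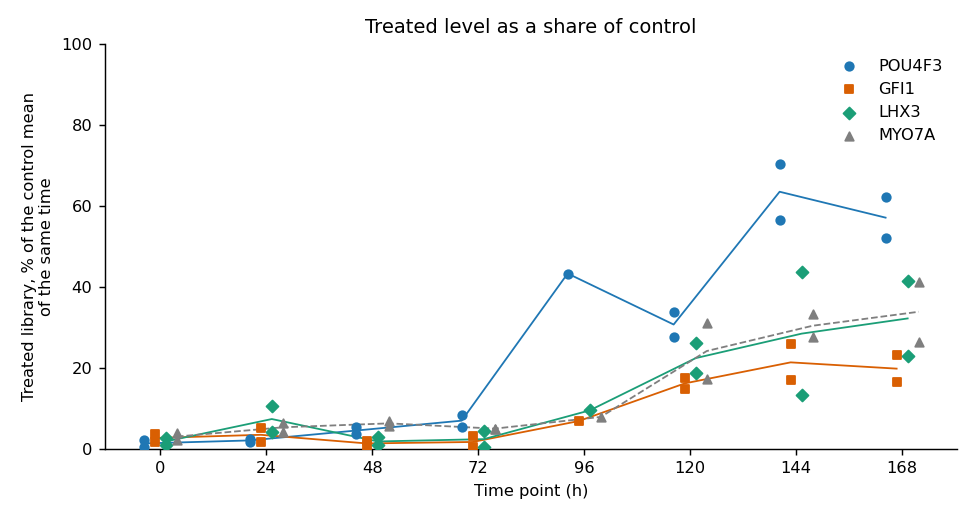
Treated level as a percentage of the mean control level of the same time (vertical axis) against time in hours (horizontal axis), for each treated library (points) with lines through the mean at each time. POU4F3 reaches 43.3% at 96 h and 57.1% at 168 h, and at 168 h GFI1 is at 19.8% and LHX3 at 32.2%, with MYO7A shown for comparison.

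The treatment difference itself was smaller late than early for each gene. Late minus early, it changed by 2.51 ± 0.20 for POU4F3 (limma adjusted p = 2.98e-07), by 1.64 ± 0.19 for GFI1 (adjusted p = 1.12e-05) and by 1.99 ± 0.27 for LHX3 (adjusted p = 5.66e-05). All 3 were called upward here, as were 12.6% of the features, and the median over all features was -0.12. That median was 0 after median-of-ratios rescaling of the libraries, when the 3 values were 2.62, 1.74 and 2.09.

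Both arms contributed to this narrowing. Within treated papillae, from 0 to 48 h to 120 to 168 h, POU4F3 rose by 1.38 ± 0.13 (limma adjusted p = 1.97e-07), GFI1 by 0.79 ± 0.13 (adjusted p = 5.29e-05) and LHX3 by 0.69 ± 0.18 (adjusted p = 0.00416). Higher calls took 24.8% of features in that comparison. Within control papillae over the same times, POU4F3 fell (-1.13 ± 0.14, limma adjusted p = 6.47e-06), as did GFI1 (-0.85 ± 0.14, adjusted p = 8.26e-05) and LHX3 (-1.29 ± 0.20, adjusted p = 4.7e-05), where 20.3% of features were called lower. Between these windows, a rising percentage of control therefore holds both a rise in treated and a fall in control papillae. Within the late window it need not. From 120 to 168 h the treated mean went from 2.35 to 2.34 RPKM for POU4F3 and from 1.38 to 1.34 RPKM for LHX3. The control mean went from 7.64 to 4.11 RPKM and from 6.17 to 4.15 RPKM. Against the first controls, at 0 h, the treated papillae of 168 h were still lower by -2.44 ± 0.23 for POU4F3 (limma adjusted p = 4.29e-07), -2.55 ± 0.22 for GFI1 (adjusted p = 1.49e-07) and -2.77 ± 0.32 for LHX3 (adjusted p = 4.03e-06), beside 17.2% of features called lower.

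At single times the calls of the genes parted from 96 h on. GFI1 was lower at all 8 times, from -3.88 ± 0.27 at 72 h to -1.61 ± 0.22 at 144 h (limma adjusted p = 0.000543 at 144 h). POU4F3 passed at 0, 24, 48, 72 and 120 h. It did not pass at 96 h (-1.04 ± 0.33, limma adjusted p = 0.0956), 144 h (-0.5 ± 0.23, adjusted p = 0.213) or 168 h (-0.56 ± 0.23, adjusted p = 0.273), although its treated libraries lay below its controls there too. LHX3 passed at all times but 168 h (-1.15 ± 0.32, limma adjusted p = 0.0924), where a replicate block within each time gave the same difference with adjusted p = 0.0128. Lower calls took 10.9%, 18.3%, 13.9%, 7.5%, 2.07%, 2.28%, 4.3% and 1.03% of features at the 8 times in order. The LHX3 call at 120 h (-1.6 ± 0.39, limma adjusted p = 0.0389) was lost without treated sample 1 or 2 at 120 h (adjusted p = 0.0916 and 0.126), control sample 1 or 2 at 0 h (0.0535 each) or control sample 1 or 2 at 48 h (0.0514 each). Its call at 144 h was lost without treated sample 1 (-0.86, adjusted p = 0.268) or control sample 2 (-1.02, adjusted p = 0.239) of that time. For POU4F3, the call at 120 h was lost without treated sample 2 (-1.27, limma adjusted p = 0.0662), and the 96 h difference passed without control sample 1 or 2 at 168 h (adjusted p = 0.0485 and 0.0484). With a pseudocount of 0.1 the calls at 120 h were lost for all 3 genes (adjusted p = 0.09, 0.0551 and 0.239 for POU4F3, GFI1 and LHX3), and so were those of LHX3 at 96 h (0.0717) and 144 h (0.115).

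**Figure D3:**
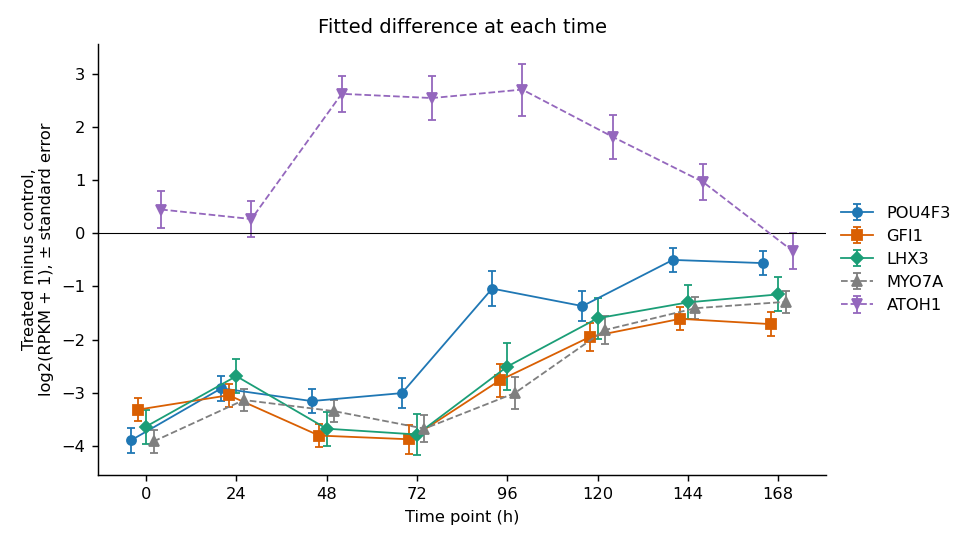
Fitted treated minus control difference on the log2(RPKM + 1) scale (points, bars are ± 1 standard error) at each time in hours for POU4F3, GFI1 and LHX3, with MYO7A and ATOH1 as dashed lines. At 72 h POU4F3 is at -3.01, GFI1 at -3.88 and LHX3 at -3.79, and at 96 h they are at -1.04, -2.77 and -2.51, while ATOH1 is above 0 at each time but 168 h.

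Whether the genes moved by different amounts was tested within libraries. The measure was the difference in log2(RPKM + 1) between 2 genes of 1 library, called their log2 ratio here. Its treated minus control differences were taken at each time and averaged over the times of a window. They need not equal the gap between the printed means, which pool the libraries of a window. At 0 to 48 h the log2 ratio of POU4F3 to GFI1 was 0.03 ± 0.31 in treated and -0.04 ± 0.40 in control libraries (SD, n = 6 each), a difference of 0.07 in an exact two-sided permutation test within times (p = 0.676, adjusted over 12 tests p = 0.811). None of the 6 early ratios, between members or to MYO7A, differed by more than 0.14, and their exact permutation p-values were 0.389 to 0.981. Early treated values of the 3 genes reached at most 0.725, 0.531 and 1.1 RPKM for POU4F3, GFI1 and LHX3. A pseudocount of 1 leaves such values little room to differ, and the window mean pools times with unlike ratios. The early tests therefore cannot tell whether the genes moved by equal amounts. With a pseudocount of 0.1 the early differences to MYO7A were -0.72 for POU4F3, -0.78 for GFI1 and -0.55 for LHX3, of the opposite sign, and did not pass either (exact permutation adjusted p = 0.111, 0.206 and 0.403). At 120 to 168 h the ratio of POU4F3 to GFI1 was 0.61 ± 0.08 in treated (n = 6) and -0.40 ± 0.37 in control libraries (n = 5), a difference of 0.94. Its exact permutation p of 0.00926 is the smallest the design allows, and it did not pass after adjustment (p = 0.0556). The ratio of POU4F3 to LHX3 gave 0.59 ± 0.26 in treated and 0.01 ± 0.33 in control libraries, a difference of 0.54 with the same exact p and adjusted p. GFI1 to LHX3 differed by -0.41 (exact permutation p = 0.0278, adjusted p = 0.0833) and POU4F3 to MYO7A by 0.69 (the same values). GFI1 to MYO7A (-0.25, exact permutation p = 0.185) and LHX3 to MYO7A (0.16, p = 0.454) were closer to their control ratios.

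In RPKM, POU4F3 over GFI1 from 72 h on was 1.72 to 14.8 in the 9 treated libraries (median 2.05), against 0.46 to 1.01 in the 7 controls (median 0.85). POU4F3 over LHX3 was 1.48 to 13.5 in treated (median 1.83) and 0.7 to 1.3 in control libraries (median 0.95). Both sets of ratios are without overlap, and both highest values come from sample 2 at 72 h, where GFI1 and LHX3 were at their lowest. At 0 to 48 h the same ratios overlapped between arms, at 0.35 to 3.69 in treated and 0.75 to 1.54 in control libraries for POU4F3 over GFI1. That overlap pools unlike times. POU4F3 over GFI1 was 0.82 and 0.41 in treated against 1.54 and 1.28 in control libraries at 0 h. By 48 h it was 3.69 and 2.46 against 0.9 and 0.76, and POU4F3 over LHX3 was 3.82 and 1.7 against 0.92 and 0.83. These early treated ratios rest on few reads. The ranges from 72 h on and the ratios at single times were chosen after their values were seen and were not tested.

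ATOH1, which acts before the 3 genes, was higher in treated papillae at times when they were lower. It did not pass at 0 h (0.45 ± 0.34, limma adjusted p = 0.371) or at 24 h (0.27 ± 0.34, adjusted p = 0.574), when it averaged 14.1 RPKM in treated and 10.8 RPKM in control papillae. It averaged 16.8 RPKM in treated and 1.87 RPKM in control papillae at 48 h (2.63 ± 0.34, limma adjusted p = 3.02e-05) and also passed upward at 72, 96 and 120 h. Higher calls took 13.8%, 6.25%, 1.85% and 0.271% of features at 48, 72, 96 and 120 h. The call at 120 h (1.82 ± 0.42, limma adjusted p = 0.0279) was lost without treated sample 1 of that time (1.44, adjusted p = 0.186) and with no filter (adjusted p = 0.0519). At 144 h ATOH1 was at 0.97 ± 0.34 (limma adjusted p = 0.107, or 0.0453 with a replicate block within each time). Its mean in treated papillae was highest at 48 h, while its highest single treated library was at 24 h (19.7 RPKM). The treated mean was 1.48 RPKM at 168 h, against 2.12 RPKM in controls (-0.34 ± 0.34, limma adjusted p = 0.714). The treated level of POU4F3 was highest at 96 h, in the lone library of that time (4.21 RPKM). Those of GFI1 and LHX3 were highest at 120 to 168 h. The order of these highest times was not tested.

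Other transcription factors of hair cells and the prosensory epithelium were mostly higher in treated papillae at 0 to 48 h. Of 16 listed, 12 matched a feature and 11 passed the filter on low values. At 0 to 48 h, 8 rose and 0 fell, with a median of 0.47 against 0.03 over all features. Of these features 27.6% were called higher and 23.5% lower. By size the largest were GATA3 (1.68 ± 0.15), EYA1 (1.61 ± 0.10), ATOH1 (1.12 ± 0.20) and PROX1 (0.73 ± 0.10), each of which is also expressed in supporting cells or their precursors. GATA3 averaged 45.9 RPKM in treated and 16.6 RPKM in control papillae, and EYA1 44.8 and 15 RPKM. IKZF2, which in mice promotes outer hair cell identity, stood at 7.91 RPKM in treated and 5.99 RPKM in control papillae (0.36 ± 0.09). The ATOH1 difference was 0.36 (limma adjusted p = 0.253) over 0 and 24 h alone. At 120 to 168 h, 2 of the 11 were higher, ATOH1 and PROX1, and 2 were lower, RFX2 and TBX2. The median of the 11 was -0.09 against -0.07 over all features, of which 4.31% were called higher and 15.1% lower. In this late window ATOH1 was at 0.82 ± 0.21, or 0.31 (limma adjusted p = 0.424) over 144 and 168 h alone.

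**Figure D4:**
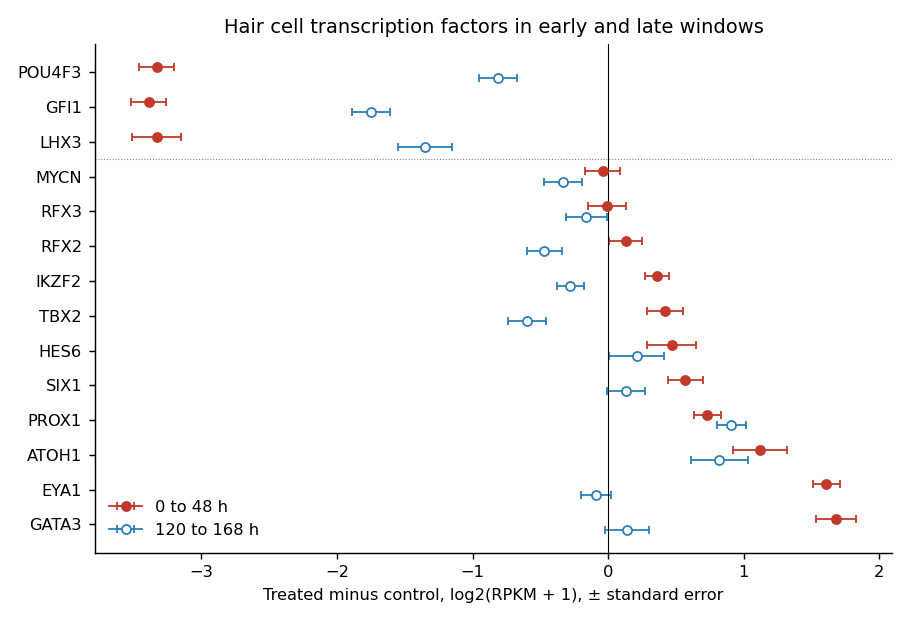
Treated minus control difference on the log2(RPKM + 1) scale (horizontal axis, ± 1 standard error) at 0 to 48 h (filled red) and 120 to 168 h (open blue) for POU4F3, GFI1 and LHX3 above the dotted line and the 11 other factors tested below it. The 3 genes lie near -3.3 early, between -3.39 and -3.33, and between -1.75 and -0.81 late, and the other factors lie between -0.04 and 1.68 early.

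Of 13 listed POU4, GFI and LIM homeodomain relatives, 8 matched a feature, and 6 of these were too low to pass the filter. LHX8 and LMX1B passed it. POU4F1, POU4F2, LHX2, ISL2 and LMX1A were not analysed here. LHX4, the nearest relative of LHX3, was listed at 0 in 21 of 28 libraries and reached at most 0.154 RPKM. GFI1B was listed at 0 in 16 libraries and reached at most 0.207 RPKM. LMX1B, found in all 28 libraries at 0.163 to 3.36 RPKM, was lower (-0.41 ± 0.16) at 0 to 48 h, and neither passed at 120 to 168 h by limma, where both had an unadjusted p under 0.05. Genes of the proteins that work with GFI1 or with LIM homeodomain factors moved little. Of 8 such cofactor genes tested, 2 rose and 1 fell at 0 to 48 h, with a median of -0.03, shares below the 27.6% and the 23.5% of all features called higher and lower. KDM1A (0.45 ± 0.08), the histone demethylase recruited by GFI1, and RCOR1 (0.54 ± 0.09), its CoREST partner, were the rises, and LDB2 (-0.47 ± 0.13), a LIM-binding adaptor, the fall. None of the 8 passed at 120 to 168 h by limma, and 1 had an unadjusted p under 0.05, LDB2 (-0.36 ± 0.14, adjusted p = 0.0821).

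Among 7 genes listed for a link to POU4F3 or to the same cells in mice, 4 fell and 1 rose at 0 to 48 h, beside 23.5% of features called lower and 27.6% higher. At 120 to 168 h 4 fell and 0 rose, beside 15.1% lower and 4.31% higher. BDNF, the neurotrophin gene made by hair cells, averaged 6.63 RPKM in treated and 29.8 RPKM in control papillae early (-2.14 ± 0.19), and 6.63 and 10.9 RPKM late (-0.71 ± 0.20). RBM24, an RNA-binding splicing regulator of hair cells, averaged 0.36 RPKM in treated and 15.6 RPKM in control papillae early (-3.59 ± 0.14), and 2.17 and 7.02 RPKM late (-1.42 ± 0.15). LOXHD1 (-3.44 ± 0.12), a stereocilia gene, and CIB2 (-2.28 ± 0.21), a gene of the mechanotransduction complex, were the other early falls. RBM24, LOXHD1 and CIB2 also stand in the list of hair cell markers. NR2F2 (1.22 ± 0.14), an orphan nuclear receptor, was the early rise and was at -0.08 ± 0.15 late. NTF3, the other neurotrophin gene of the list, was at -0.28 ± 0.13 early, with adjusted p = 0.095 by limma.

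By the shape of their course within each arm, GFI1 and LHX3 were nearest to each other. Likeness was taken as the smaller of the Pearson correlations of log2(RPKM + 1) over the 15 treated and over the 13 control libraries, among 8593 features, as a description of libraries that share time points. GFI1 and LHX3 correlated at 0.92 in treated and 0.97 in control libraries, and each ranked first for the other. POU4F3 stood at rank 9 for GFI1 (0.8 in treated and 0.89 in control libraries) and at rank 14 for LHX3 (0.68 and 0.94). For POU4F3 itself, GFI1 was at rank 14, MYO7A at rank 25 (0.75 and 0.96) and LHX3 at rank 44. For POU4F3 the nearest features were ELFN1 (0.95 and 0.93), a synaptic adhesion gene, RBM24, ARMC4 and KCNAB2 (each 0.91 and 0.93). RBM24 stood second for all 3 genes. After it came SCG3 (0.88 and 0.87) and LOXHD1 (0.86 and 0.9) for GFI1, and STARD10 (0.82 and 0.97) and TMPRSS3 (0.77 and 0.9) for LHX3. ELFN1 lay between 0.302 and 2.19 RPKM in treated and between 2.79 and 12.7 RPKM in control libraries.

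The 3 genes moved beside the markers of hair cells. Of 33 listed hair cell markers 30 matched and were tested, with 1 higher and 25 lower at 0 to 48 h (median -2.73), beside 27.6% of features higher and 23.5% lower. At 120 to 168 h 0 were higher and 28 lower (median -1.34), beside 4.31% of features higher and 15.1% lower. Their summed level was 131 to 201 RPKM in early treated and 753 to 1410 RPKM in early control libraries, and 81.5 to 106 RPKM in late treated and 259 to 499 RPKM in late control libraries. TMIE was listed at 0 in all early treated libraries. The treated sum held abundant members that were close to or above their control level early. MYO6, an unconventional myosin gene, averaged 55.4 RPKM in early treated and 64.5 RPKM in early control papillae (-0.22 ± 0.09, limma adjusted p = 0.0586), and its treated mean was 24.2 RPKM late. USH1C, the harmonin gene, averaged 47.9 RPKM in early treated and 35.9 RPKM in early control papillae, and its treated mean was 26.7 RPKM late. Within treated papillae both fell from early to late (-1.15 ± 0.09 and -0.81 ± 0.10), while MYO7A (0.93 ± 0.12), OTOF (1.18 ± 0.21), RBM24 (1.21 ± 0.14) and LOXHD1 (0.68 ± 0.12), which were far below control early, rose as the 3 genes did. Of these, MYO6, USH1C, RBM24 and LOXHD1 were singled out here after their values were seen, and MYO7A was a fixed comparison gene. OTOF, with OCM2, SNCG and TMC2, which were also far below control early, had the 4 largest early differences of the list. Grouping the markers by their course was done after their values were seen. Treated means of OCM2 were 11 RPKM early and 3.66 RPKM late. Those of SNCG were 0.594 and 0.224 RPKM, and those of TMC2 0.124 and 0.177 RPKM. Being far below control early thus did not go with a rise in all markers. Of the 30 markers, 7 rose and 6 fell from early to late within treated papillae, with a median of 0.09, where 24.8% of features were called higher and 29.9% lower. Within controls 0 rose and 25 fell, with a median of -1.29, beside 20.3% of features called lower.

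Part of the markers of leukocytes, neurons and supporting cells also differed between the arms. Of 7 leukocyte markers tested, 0 rose and 3 fell at 0 to 48 h and 0 rose and 5 fell at 120 to 168 h, beside 23.5% and 15.1% of features called lower. Their 10 matched members summed to 27.8 to 53.8 RPKM in early treated and 45.2 to 99.5 RPKM in early control libraries, and to 63.5 to 114 RPKM in late treated and 146 to 202 RPKM in late control libraries, with none at 0 throughout a group. In controls these markers rose from early to late (6 of 7, median 1.52, beside 28.7% of features called higher), when GFI1 fell. Within treated papillae 6 of the 7 also rose and 1 fell (median 1.31), when GFI1 rose. Of all features, 24.8% were called higher and 29.9% lower in that comparison. Of 7 neuron markers tested, 0 rose and 6 fell at 0 to 48 h (23.5% of features lower), and the 8 matched summed to 82.8 to 139 RPKM in early treated and 262 to 333 RPKM in early control libraries. Late sums were 109 to 188 RPKM in treated, with STMN2 at 0 throughout, and 151 to 197 RPKM in controls, with 4 of 7 lower in treated (15.1% of features). Of 12 supporting cell markers tested, 8 rose and 2 fell at 0 to 48 h (27.6% of features higher and 23.5% lower), and the 13 matched summed to 1180 to 1980 RPKM in early treated and 976 to 2120 RPKM in early control libraries. GJB6 (3.03 ± 0.19), NOTCH1 (1.69 ± 0.09), SOX9 (1.64 ± 0.12) and SOX2 (1.5 ± 0.12), the progenitor and supporting cell factor, were among the rises. BMP4 (-2.15 ± 0.14) and TECTB (-0.9 ± 0.29) were the falls. In the late window 3 of the 12 were higher and 0 lower, beside 4.31% of features higher and 15.1% lower. The part of these cell types in the levels of the 3 genes was not tested.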

How the data were processed

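Basilar papillae were profiled by RNA sequencing in 28 samples of 16 groups. Per the labels, RNA was extracted in Trizol and Illumina protocols were followed for the libraries. The deposited RPKM values were computed by the authors. The submitters' processing notes name TopHat 1.4.0 and Partek 6.6 without roles, and the build and its annotation are not stated there. Of the table's columns, 4 matched no sample and were not used. They are second samples at the times where a group had a lone listed library, and their values were not compared with it. Counts per gene were not analysed here. Samples were grouped by title.

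The 12195 features that reached 1 RPKM in 2 or more samples were fitted as log2(RPKM + 1) with limma 3.58.1 in R 4.3.3 (intensity trend, two-sided). The model for all times had additive effects of treatment and time (19 residual degrees of freedom), and other comparisons 1 mean per group (12), where groups with 1 sample are assumed to vary like the rest. Ratios were tested by exact permutation within times in Python 3.11.15. The members and lists were chosen with earlier results of these data known. The 10 lists held 135 entries, 107 of them matched, 2 by a synonym. Erythrocyte and mesenchyme lists are given with the other observations. Named list genes are the up to 4 largest early differences that passed, with others singled out after their values were seen. The fit and the permutation test were checked on simulated data.

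At each time with both samples in both arms, the difference of sample 1 from sample 2 correlated across features between the arms at 0.31, 0.29, 0.11, 0.48 and 0.41 (0, 24, 48, 144 and 168 h). Same-numbered samples were therefore treated as paired in the replicate block, one of the alternatives, with a pseudocount of 0.1, no filter, no trend, rescaling, fewer samples or times, and leaving out each library.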

Additional observations from a re-analysis of the deposited data

Results flagged for a closer look

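For each of the 3 genes the effect of treatment differed between times, as the test of late minus early (120 to 168 h against 0 to 48 h) passed. The difference between treated and control papillae changed by 2.51 for POU4F3, by 1.64 for GFI1 and by 1.99 for LHX3 on the log2(RPKM + 1) scale. Of 30 hair cell markers, 23 were called upward and 2 downward in that test (median 1.37), beside 12.6% of features called upward. Unlike the 3 genes, which all rose within treated papillae, 7 of these markers rose and 6 fell there (median 0.09). Of all features, 24.8% were called higher and 29.9% lower in that comparison. Within controls 25 markers fell (median -1.29), beside 20.3% of features called lower. No group held enough samples for a search for outlying libraries.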

How the results depend on the processing

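Over the windows, all times, the changes within each arm and the last treated against the first control time, POU4F3, GFI1 and LHX3 kept their direction and their side of the threshold under every alternative run. This includes the replicate block within each time (at 120 to 168 h -0.78, -1.73 and -1.3) and, chosen after seeing the data, all times without 72, 96 and 120 h (-2.21, -2.7 and -2.49). Without the control at 120 h the 120 to 168 h window could not be fitted, and over 144 and 168 h alone the values were -0.53, -1.66 and -1.22. At single times a pseudocount of 0.1 ended the calls of LHX3 at 96 h (-3.27), 120 h (-2.1) and 144 h (-1.9), of GFI1 at 120 h (-2.54) and of POU4F3 at 120 h (-1.67). The LHX3 call at 120 h was also lost with no filter (-1.6) and with rescaling (-1.48), and LHX3 at 168 h passed with the replicate block within each time (-1.15), which changed no other call of the 3 genes. With single libraries left out, LHX3 ranged from -1.74 to -1.46 at 120 h and from -1.74 to -0.86 at 144 h, and POU4F3 from -1.48 to -1.27 at 120 h and at -1.04 at 96 h. ATOH1 at 24 h ranged from -0.29 (without treated sample 2 of that time) to 0.83. Features called at 120 to 168 h numbered 2369, or 1550 with only the samples compared in the fit, and those called for treated 168 h minus control 0 h numbered 4272, or 2825 (without control sample 1 at 0 h) to 4402 with libraries left out. Early log2 ratios, none of which passed, changed sign with a pseudocount of 0.1 for POU4F3 to LHX3 (-0.17) and for POU4F3 (-0.72), GFI1 (-0.78) and LHX3 (-0.55) to MYO7A, as did late LHX3 to MYO7A (-0.09). With libraries left out, early POU4F3 to LHX3 ranged from -0.07 to 0.09 and GFI1 to MYO7A from -0.02 to 0.17. The causes were not tested. Depth limits the early treated values, which rest on 1 to 9 reads per library for POU4F3 and GFI1 if a step is 1 read.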

Other observations

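Of 8 mesenchyme markers tested, 0 rose and 4 fell in treated against control papillae at 0 to 48 h, beside 23.5% of features called lower, and none passed by limma at 120 to 168 h, where 0 had an unadjusted p under 0.05. Within treated papillae all 8 rose from early to late, beside 24.8% of features called higher. Their summed level was 17.8 to 128 RPKM in early treated and 48 to 197 RPKM in early control libraries. Of 2 erythrocyte markers tested, none passed by limma at 0 to 48 h or at 120 to 168 h, and 0 had an unadjusted p under 0.05 in either window.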
